A study of Mus musculus with 6 samples.

Results

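The CC chemokine genes encode small secreted proteins that draw leukocytes along a gradient, and 10 of them, Ccl2, Ccl3, Ccl4, Ccl5, Ccl6, Ccl7, Ccl9, Ccl12, Ccl22 and Ccl24, were followed in mouse macrophages after 1 h of LPS. They were found by gene symbol among the 55335 gene rows of the count table, each on 1 row, and all 10 passed the filter on low counts that left 15687 genes for testing. Ccl24 passed it through its LPS libraries alone. Macrophages were grown from the bone marrow of C57BL/6 mice (BMDMs) for 6 days in medium with 10% fetal bovine serum and 20% L929-conditioned medium, the source of the growth factor that drives macrophage differentiation. No genotype other than C57BL/6 was present, and according to the methods the animals of the study were young adult males. Total RNA was sequenced from 3 libraries of cells given PBS and 3 of cells given LPS, the lipopolysaccharide of the bacterial outer membrane, all after 1 h. The LPS dose is not given in the labels, and nothing in them says whether the libraries came from separate animals, so the p-values measure the spread between these libraries.

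CC chemokines carry a pair of adjacent cysteines near their start and act through G protein-coupled receptors of the CCR family on monocytes, T cells, eosinophils and other leukocytes. Ccl2, Ccl7 and Ccl12 are ligands of the monocyte receptor CCR2. Ccl3, Ccl4 and Ccl5 attract T cells and monocytes, Ccl6 and Ccl9 are CCR1 ligands found in rodents, Ccl22 is a ligand of CCR4 and Ccl24 of the eosinophil receptor CCR3. In macrophages LPS is recognised by TLR4, whose signalling activates NF-kB and AP-1, and several CC chemokine genes are classical early targets of this pathway.

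Of the 10 genes, 9 rose past an adjusted p of 0.05 and a log2 fold change of 1 in edgeR's quasi-likelihood test with Benjamini-Hochberg adjustment, and 0 fell. Of all genes tested, 10.5% rose and 10.4% fell by the same criteria. The median log2 fold change was 3.78 over the 10 genes and -0.01 over all genes tested. The 10 genes were chosen with earlier results of these data known, and of the 5 other CC chemokine genes tested, 2 rose and 1 fell. Ccl6 was the gene that did not pass the fold criterion. Ccl24, with 9, 10 and 7 counts in PBS, entered the test only through its LPS libraries, so the filter favoured its rise. An adjusted p under 0.05 by itself was reached by all 10 genes and by 67.7% of the genes tested. In 9 of the 10 genes all 3 LPS libraries lay above all 3 PBS libraries, a separation that 33.9% of the genes tested showed, and for Ccl6 all 3 LPS libraries lay below, as in 36.6%. A change of the RNA level per cell and a change in the makeup of the cultures cannot be told apart in bulk RNA.

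The libraries held 37787611 to 41516330 counts. Tnf, taken as the check that LPS acted, rose from 20.2 ± 1.19 to 2302 ± 49.8 normalized CPM (CPM, counts relative to the library total after scaling by edgeR's TMM factors, mean ± SD, n = 3), a log2 fold change of 6.83. All 8 macrophage markers examined were detected, with a summed level of 29946 to 31229 normalized CPM in PBS and 35886 to 36245 in LPS, and 1 of them, Cd14, rose past both criteria. Of the 5 dendritic cell markers, 4 rose (Flt3, Zbtb46, Xcr1 and Siglech), against 10.5% of all genes tested, and Ccr7 did not pass both criteria. The sum of the 5 went from between 4.05 and 5.42 to between 11.8 and 12.3 normalized CPM. The sums ranged from 33.6 to 35.8 in PBS and 44.3 to 46.2 in LPS for 6 neutrophil markers, and from 20.4 to 22.3 and 30.4 to 30.9 for 4 T cell markers. They ranged from 0.798 to 0.908 and 1.47 to 1.85 for 3 mast cell or basophil markers. For 4 stromal markers the ranges were 8.77 to 10.1 and 11.5 to 13.4, with Pdgfrb rising, and for 3 endothelial markers 35.4 to 38.6 and 44.9 to 48.7, with Cdh5 rising. None of these markers was at 0 in all libraries, while Ly6g, Cd3e, Cd3d, Cd8a and Fcer1a stayed under the filter on low counts. The part of other cell types in the changes described here was not tested.

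The genes occupy 4 places in the genome (GRCm38, GENCODE M21). Ccl2, Ccl7 and Ccl12 lie within 67830 bases at chr11:82035571-82103400, and Ccl5, Ccl9, Ccl6, Ccl3 and Ccl4 within 138906 bases at chr11:83525778-83664683. Ccl22 stands alone at chr8:94745590-94751699 and Ccl24 at chr5:135569937-135573049. All 10 are protein coding, and none shares exonic bases with another annotated gene, although the body of Ccl2 overlaps that of Gm17268 and the body of Ccl6 that of E230016K23Rik. Of the stretches of 50 exonic bases, 0 were found in another gene's transcripts for 9 of the genes. For Ccl9, 59 of 2996 stretches, or 1.97%, recurred in the transcripts of 463 other genes.

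Promoter windows from RefSeq (GRCm38.p6) were found for 5 of the 10 genes, Ccl3, Ccl6, Ccl9, Ccl12 and Ccl22. The 250 bases upstream of the start site are printed for 4 of them on the gene's strand, because Ccl9 and Ccl6 are neighbours with different responses and Ccl3 and Ccl12 come from the same chromosome with a larger and a smaller rise. Capitals mark matches to the motifs searched.
Ccl9, chr11:83578637-83578886, minus strand: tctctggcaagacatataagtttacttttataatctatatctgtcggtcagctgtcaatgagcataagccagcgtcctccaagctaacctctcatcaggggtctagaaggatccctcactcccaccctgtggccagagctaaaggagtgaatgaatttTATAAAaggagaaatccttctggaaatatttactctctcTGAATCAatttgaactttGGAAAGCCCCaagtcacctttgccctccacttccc
Ccl6, chr11:83593088-83593337, minus strand: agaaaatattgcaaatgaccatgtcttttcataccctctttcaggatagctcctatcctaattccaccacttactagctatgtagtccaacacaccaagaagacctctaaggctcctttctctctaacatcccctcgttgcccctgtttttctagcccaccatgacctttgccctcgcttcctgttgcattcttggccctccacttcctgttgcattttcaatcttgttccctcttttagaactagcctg
Ccl3, chr11:83649379-83649628, minus strand: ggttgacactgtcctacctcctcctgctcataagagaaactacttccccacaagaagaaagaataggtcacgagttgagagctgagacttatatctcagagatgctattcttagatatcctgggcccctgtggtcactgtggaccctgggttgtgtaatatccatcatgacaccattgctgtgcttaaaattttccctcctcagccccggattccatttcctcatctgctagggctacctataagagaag
Ccl12, chr11:82101595-82101844, plus strand: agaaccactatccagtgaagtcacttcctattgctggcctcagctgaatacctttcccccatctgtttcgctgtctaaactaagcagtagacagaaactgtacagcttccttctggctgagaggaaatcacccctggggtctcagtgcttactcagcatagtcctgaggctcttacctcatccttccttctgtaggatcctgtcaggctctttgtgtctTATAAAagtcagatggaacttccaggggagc
The capitals in Ccl9 are, from left to right, a TATA box, an AP-1 match and an NF-kB match, and those in Ccl12 are a TATA box. In windows of 300 bases (250 before and 50 after the start), the NF-kB consensus was found on either strand in 8.46% of 32851 windows, and in 1 of the 5 chemokine windows, that of Ccl9. The AP-1 motif TGANTCA on either strand was in 7.81% of all windows and again in that of Ccl9. TATAAA on the gene's strand was in 8.32% of all windows and in those of Ccl9 and Ccl12. The C/EBP motif TTGCNNAA was in 10.8% of all windows and the ISRE in 3.44%, both on either strand, and neither was in the 5 chemokine windows. A looser NF-kB consensus was in 11.2% of all windows and added no chemokine gene. Apart from both forms of the NF-kB consensus, no motifs overlapped in the printed bases. The sequences of Ccl3 and Ccl6 hold none of the motifs searched. Any link between these motifs and the responses was not tested.

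Among the ligands of CCR2, Ccl2, which recruits monocytes from blood and marrow, rose steeply. Its normalized CPM was 11.8, 12.9 and 11.7 in PBS replicates 1, 2 and 3 and 645, 604 and 632 in LPS replicates 1, 2 and 3. The LPS libraries all lay far above the PBS libraries and differed little among themselves. The log2 fold change was 5.69 ± 0.05 (SE), a 51.8-fold rise (adjusted p = 1.54e-23, edgeR), and within the same-numbered batches it was 5.78, 5.55 and 5.76.

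Ccl7, a neighbour of Ccl2 on the same strand and a second monocyte attractant, had the highest fold change of the 10 genes. It was at 4.39, 3.59 and 4.07 normalized CPM in PBS and at 229, 229 and 231 in LPS. Its 3 LPS libraries were nearly equal. The rise was 57-fold, a log2 fold change of 5.83 ± 0.05 (adjusted p = 3.9e-23, edgeR), with 5.71, 6.00 and 5.83 within batches, and it ranked 134 among the 15687 genes tested by log2 fold change. The 95% intervals of Ccl2 (5.60 to 5.79) and Ccl7 (5.73 to 5.94) overlapped.

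Ccl12, a mouse CCR2 ligand at the other end of this cluster, rose much less. It held 173, 199 and 208 counts in PBS and 551, 510 and 506 in LPS, which is 4.18 ± 0.478 against 15.6 ± 0.776 normalized CPM (mean ± SD, n = 3). The groups did not overlap, and the lowest LPS library stood well above the highest PBS library. The change was 3.74-fold, a log2 fold change of 1.90 ± 0.09 (adjusted p = 1.47e-12, edgeR), and within batches it was 2.18, 1.83 and 1.72.

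**Figure D1:**
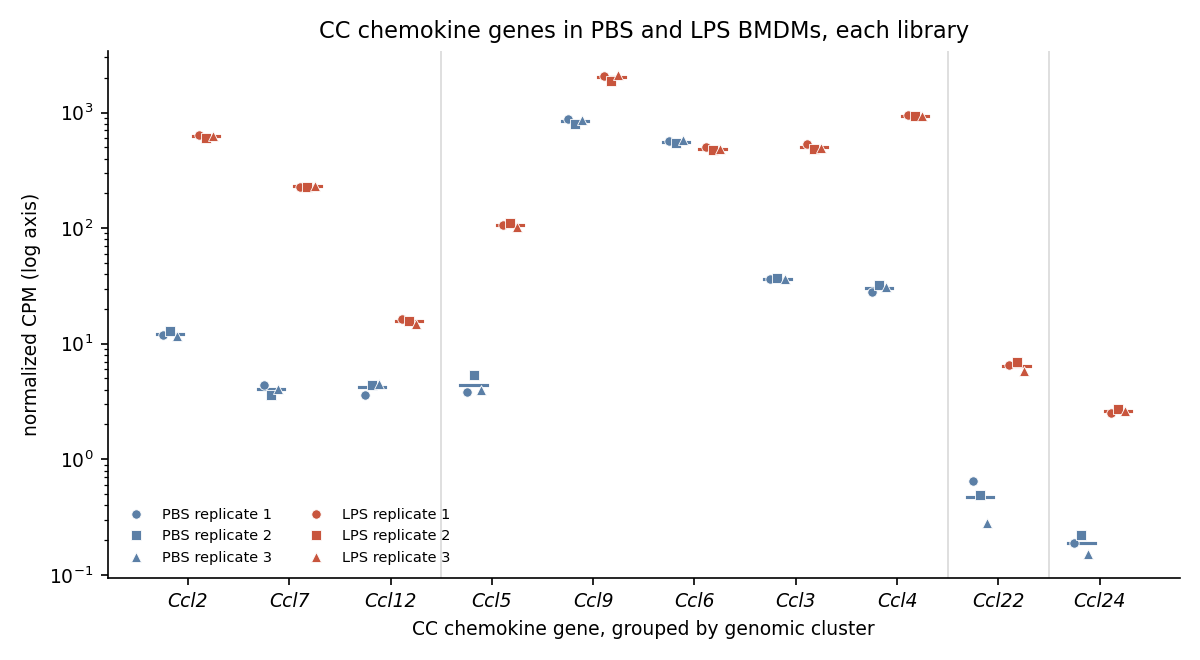
Normalized CPM (log axis) of the 10 CC chemokine genes in each of 3 PBS (blue) and 3 LPS (red) libraries, with short lines at the group means and marker shapes for replicates 1, 2 and 3. In 9 genes the LPS libraries lie above the PBS libraries, while in Ccl6 they lie slightly below, at 486 against 560 normalized CPM on average.

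In the second cluster, Ccl4, an attractant of T cells and monocytes, became the most abundant transcript of the family when corrected for length (TPM), although Ccl9 had more counts. Its normalized CPM was 27.9, 32 and 30.9 in PBS and 955, 927 and 924 in LPS. All 3 LPS values exceeded every PBS value by a wide margin. The log2 fold change was 4.95 ± 0.05, or 30.9-fold (adjusted p = 1.46e-22, edgeR), with 5.10, 4.86 and 4.90 within batches.

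Ccl3, which lies next to Ccl4 on the opposite strand and attracts monocytes and T cells, started from a similar level. It was at 36, 37 and 36.3 normalized CPM in PBS and at 529, 482 and 491 in LPS. The PBS libraries were close together and the highest LPS value was that of replicate 1. The rise was 13.7-fold, a log2 fold change of 3.78 ± 0.04 (adjusted p = 6.6e-22, edgeR), with 3.88, 3.70 and 3.76 within batches.

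Ccl5, which attracts T cells, eosinophils and monocytes, lay at 3.82, 5.31 and 4.01 normalized CPM in PBS and at 107, 110 and 102 in LPS. PBS replicate 2 was the highest of its group, yet it remained far under the LPS libraries. The change was 24.3-fold, a log2 fold change of 4.61 ± 0.07 (adjusted p = 1.08e-19, edgeR), and 4.81, 4.37 and 4.68 within batches.

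Ccl9 and Ccl6, the rodent CCR1 ligands, were already abundant without LPS and moved least. Ccl9 was at 870, 795 and 864 normalized CPM in PBS and at 2075, 1872 and 2123 in LPS. Replicate 2 was the lowest library in both groups, and the groups did not overlap. Ccl9 rose 2.4-fold, a log2 fold change of 1.26 ± 0.05 (adjusted p = 4.3e-14, edgeR), with 1.25, 1.23 and 1.30 within batches. With scaling by library size alone its log2 fold change was 0.86 and no longer passed the fold criterion, and that scaling moved the median of all genes tested to -0.417.

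Ccl6, whose gene ends next to the start of Ccl9 on the same strand, was at 566, 540 and 573 normalized CPM in PBS and at 503, 473 and 482 in LPS. Every LPS library lay below every PBS library by a small margin. The log2 fold change was -0.20 ± 0.04 (adjusted p = 7.42e-05, edgeR), with a 95% interval of -0.27 to -0.13. Within batches it was -0.17, -0.19 and -0.25, and it was below 0 under each alternative scaling, filter and test.

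The lone genes Ccl22 and Ccl24 were the lowest of the family. Ccl22, a CCR4 ligand that attracts regulatory and helper T cells and is made by dendritic cells and macrophages, held 31, 22 and 13 counts in PBS and 221, 225 and 198 in LPS. Its PBS libraries varied more, relative to their mean, than those of any other of the 10 genes, but all lay far below the LPS libraries. The rise was 13.5-fold, a log2 fold change of 3.75 ± 0.18 (adjusted p = 2.35e-12, edgeR), and within batches it was 3.34, 3.82 and 4.37. The dendritic cell markers given above rose in the same libraries, and their part in this change was not tested.

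Ccl24, an eosinophil attractant, held 9, 10 and 7 counts in PBS and 85, 88 and 89 in LPS. The LPS values were close to each other, the PBS values rested on few counts, and the groups were well apart. Its normalized CPM went from 0.187 ± 0.0348 to 2.61 ± 0.0817 (mean ± SD, n = 3), a log2 fold change of 3.78 ± 0.22 (adjusted p = 3.71e-11, edgeR), with 3.74, 3.61 and 4.11 within batches.

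**Figure D2:**
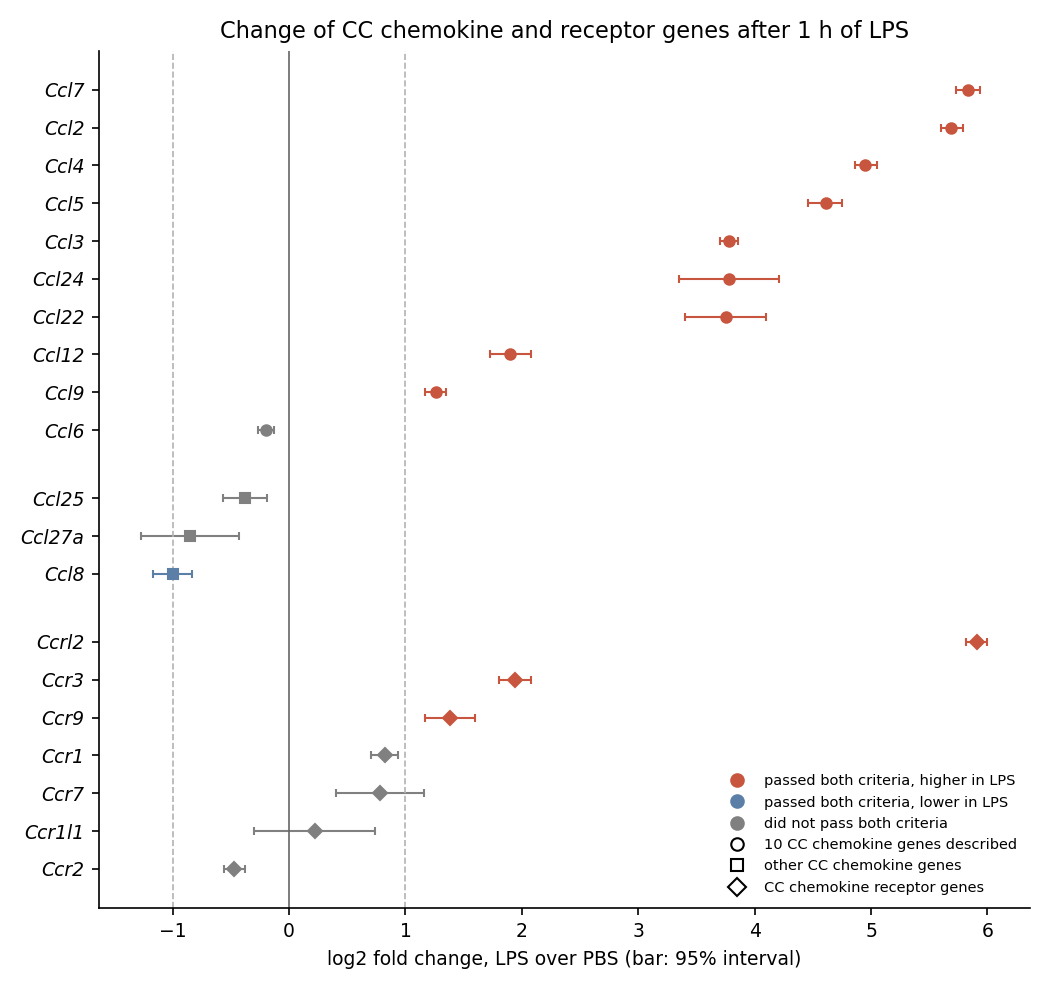
Log2 fold change (LPS over PBS, 95% interval) of the 10 CC chemokine genes (circles), other CC chemokine genes (squares) and 7 of the 8 tested CC chemokine receptor genes (diamonds), with dashed lines marking the fold criterion of 1 on both sides of 0. Ccl7 and Ccl2 lie highest at 5.83 and 5.69, Ccl6 lies at -0.20, and Ccrl2 stands apart from the other receptor genes at 5.91, while Ccl17 and Ccl20 are left out because their PBS libraries held at most 1 count.

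Levels of different genes were compared as TPM, which corrects for the exonic length of each gene. TPM does not carry the TMM factors, which were 1.148 to 1.153 in PBS and 0.8642 to 0.8719 in LPS. The level in LPS relative to PBS is therefore lower in TPM than in normalized CPM. In PBS the order was Ccl6 at 987 ± 28.1, Ccl9 at 876 ± 41.9, Ccl3 at 151 ± 2.26, Ccl4 at 145 ± 10.1, Ccl2 at 33.7 ± 1.95, Ccl12 at 24.6 ± 2.77, Ccl7 at 15.9 ± 1.59 and Ccl5 at 14.4 ± 2.7 TPM (mean ± SD, n = 3). Ccl22 at 0.644 ± 0.253 and Ccl24 at 0.458 ± 0.0865 TPM came last. Neighbours in this order that overlapped between libraries were Ccl3 and Ccl4, Ccl7 and Ccl5, and Ccl22 and Ccl24.

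After LPS the order had turned. Ccl4 led at 3266 ± 135 TPM, followed by Ccl9 at 1533 ± 143, Ccl3 at 1507 ± 110, Ccl2 at 1270 ± 78.7, Ccl7 at 661 ± 21.2, Ccl6 at 625 ± 35.6, Ccl5 at 255 ± 6.16 and Ccl12 at 67.1 ± 4.07 TPM. Ccl22 at 6.37 ± 0.451 and Ccl24 at 4.65 ± 0.0636 TPM were again lowest. The libraries of Ccl9 overlapped those of Ccl3, and those of Ccl7 overlapped those of Ccl6. Ccl6, first in PBS, was thus the sixth after LPS.

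The summed level of the 10 genes went from 2274, 2184 and 2285 TPM in PBS to 9627, 8637 and 9321 TPM in LPS, a ratio of the means of 4.09. In counts, the family took 0.172% ± 0.00608 of all counts in PBS and 0.428% ± 0.0178 in LPS. Neither the summed TPM nor these percentages use the TMM factors behind the fold changes above. The makeup of this sum changed as well. Ccl6 and Ccl9 together made up 83.8%, 81.6% and 83.1% of the summed TPM in PBS and 23.5%, 22.7% and 24.2% in LPS. The set of Ccl2, Ccl3, Ccl4 and Ccl7 made up 15.3% ± 0.874 in PBS and 72.9% ± 0.603 in LPS. Both this set and the pair of Ccl6 and Ccl9 were chosen with their values known.

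By single genes, the share of Ccl4 in the sum went from 6.46% ± 0.575 to 35.5% ± 0.602 and that of Ccl6 from 43.9% ± 0.168 to 6.79% ± 0.0514 (mean ± SD, n = 3). Ccl12, although it rose, went from 1.1% ± 0.135 of the sum to 0.73% ± 0.0313. Without the length correction the difference of the Ccl12 share was 0.037 percentage points, in the other direction. For each of the 10 genes the shares of the 2 groups did not overlap, and the exact permutation test (two-sided, n = 3 against 3) gave p = 0.1, the smallest value that this design allows, with an adjusted p of 0.1 over the 10 shares.

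**Figure D3:**
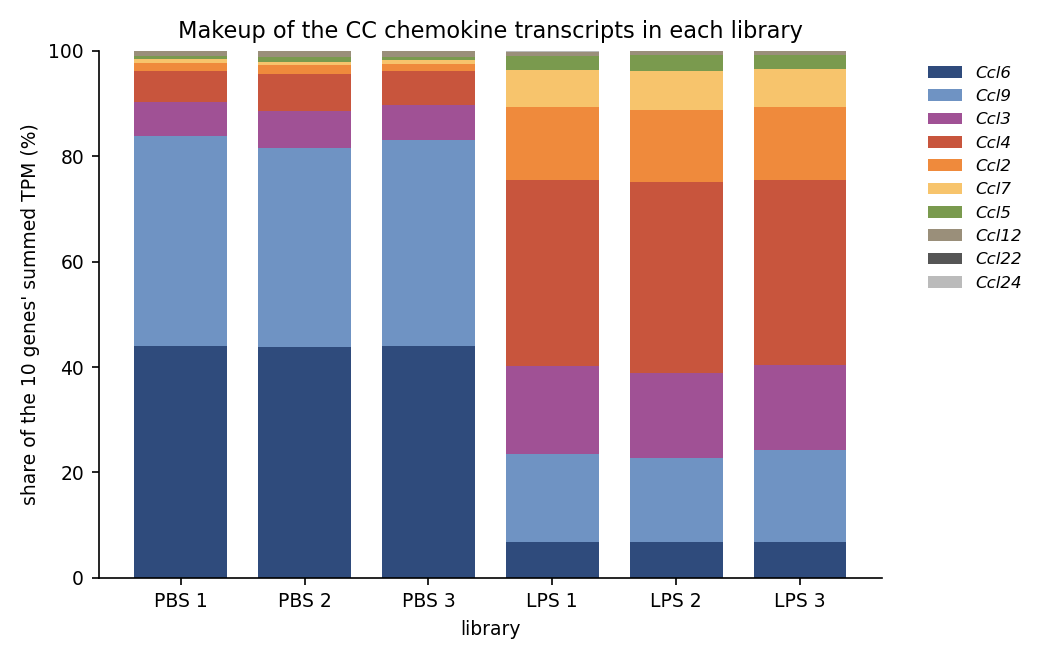
Share of each gene in the summed TPM of the 10 CC chemokine genes, in percent, as stacked bars for each of the 3 PBS and 3 LPS libraries. Ccl6 and Ccl9 fill 81.6% to 83.8% of the PBS bars and 22.7% to 24.2% of the LPS bars, where Ccl4 is the tallest band.

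The ratio of the counts of 2 genes in the same library does not depend on scaling between libraries, and 4 pairs from the same clusters were compared in this way. The ratio of Ccl4 to Ccl3 counts was 0.828 in PBS and 1.87 in LPS, so that Ccl4 went from the lower to the higher of the pair in all 3 batches. On the log2 scale this was a difference of 1.17, with 1.22, 1.15 and 1.15 within batches. The ratio of Ccl9 to Ccl6 counts was 1.51 in PBS and 4.16 in LPS, a log2 difference of 1.46, with 1.42, 1.43 and 1.54 within batches. Both pairs were separated between the groups in every library.

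Ccl12 and Ccl7 behaved differently relative to Ccl2. The ratio of Ccl12 to Ccl2 counts was 0.345 in PBS and 0.025 in LPS, a log2 difference of -3.79, with -3.60, -3.72 and -4.04 within batches. The log2 ratio of Ccl7 to Ccl2 was -1.42, -1.84 and -1.51 in PBS and -1.49, -1.40 and -1.45 in LPS, so the groups overlapped. The difference was 0.14, and between -0.07 and 0.44 within batches. By the exact permutation test (two-sided, n = 3 against 3) p was 0.1 for the other 3 pairs and 0.4 for Ccl7 to Ccl2, or 0.133 and 0.4 after Benjamini-Hochberg adjustment over the 4 pairs, and 0.1 is the smallest p that the design allows.

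**Figure D4:**
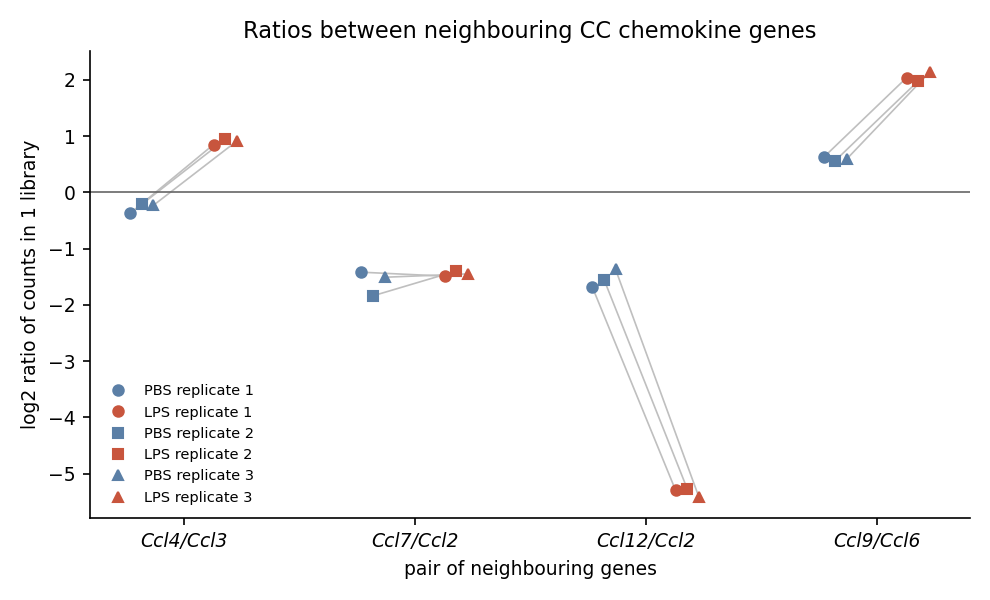
Log2 ratio of the counts of pairs of CC chemokine genes in the same library, PBS (blue) and LPS (red), with lines joining libraries of the same replicate number. Ccl4/Ccl3 and Ccl9/Ccl6 are higher in all LPS libraries, Ccl12/Ccl2 is lower by 3.79 on average, and Ccl7/Ccl2 overlaps between the groups.

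Responses differed within the clusters. Along the cluster of Ccl2, Ccl7 and Ccl12, none of the 4 annotated genes outside the chemokine lists within 100 kb passed the filter on low counts. Of the other chemokine genes there, Ccl1 and Ccl11 were at 0 counts in all libraries, and Ccl8, a ligand of the mouse receptor CCR8, held 500, 496 and 461 counts in PBS and 174, 183 and 168 in LPS. Its log2 fold change was -1.0009 ± 0.09 (adjusted p = 8.39e-09, edgeR), at the edge of the fold criterion, and it lost this call with other settings, such as DESeq2's size factors. Ccl8 thus lay below its PBS level in all LPS libraries while Ccl12, its neighbour, lay above.

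Around the cluster of Ccl5, Ccl9, Ccl6, Ccl3 and Ccl4, 8 of 18 other genes were tested and 1 rose. This was Heatr9, next to Ccl5, with 3, 2 and 0 counts in PBS and 39, 37 and 38 in LPS (adjusted p = 1.3e-08, edgeR). Heatr9 passed the filter on low counts only through its LPS libraries. Around Ccl22, 5 of 9 other genes were tested and 1, Ciapin1, a factor of cytosolic iron-sulfur protein assembly, rose by a log2 fold change of 1.46 ± 0.05 (adjusted p = 2.7e-14, edgeR). Chemokine ligands are left out of these counts, and 2 of them within the same distance of Ccl22 rose as well, Ccl17 and Cx3cl1, the latter by 1.14 ± 0.24 on the log2 scale (adjusted p = 0.000498, edgeR). Around Ccl24, 4 of 8 were tested and 1, the unverified transcript Gm42731 within the body of Hip1, fell from 99, 84 and 84 counts to 4, 7 and 5. Gm42731 passed the filter on low counts only through its PBS libraries. Over all 4 places, 2 of 17 tested genes rose and 1 fell, with a median log2 fold change of 0.12. By the same criteria 10.5% of all genes tested rose and 10.4% fell.

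**Figure D5:**
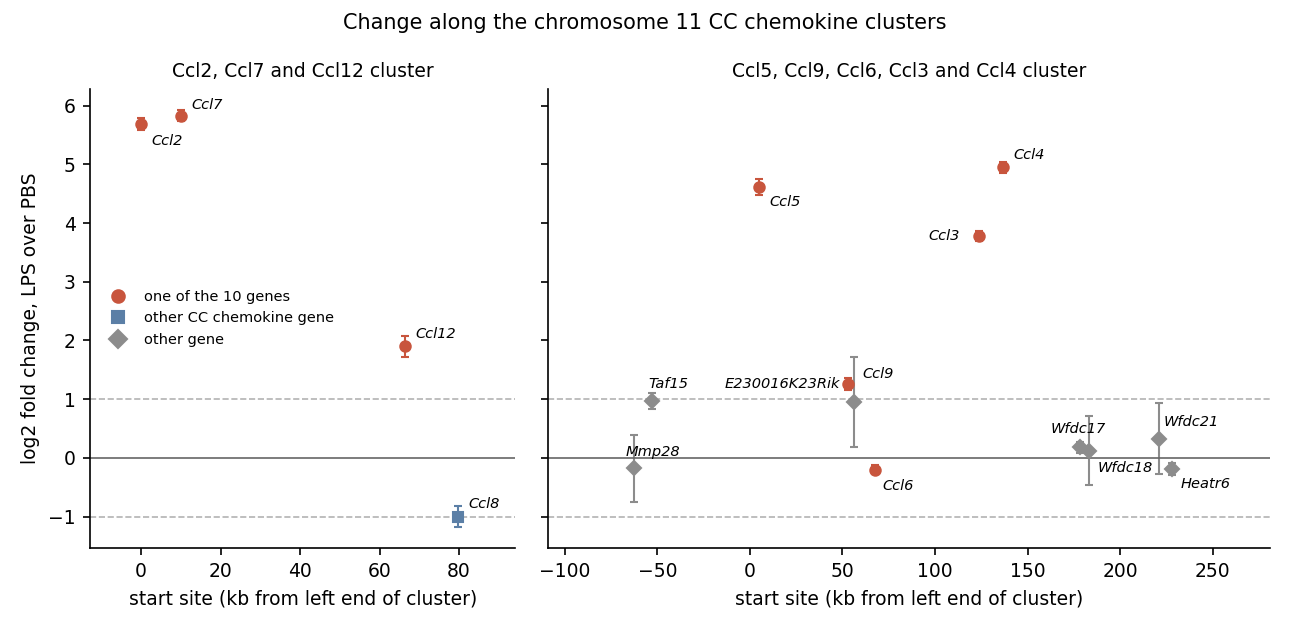
Log2 fold change (LPS over PBS, bars are 95% intervals) of the tested genes in the 2 chromosome 11 clusters and within 100 kb of them, against the position of the start site in kb from the left end of the cluster, without Heatr9, whose PBS libraries held at most 3 counts. Ccl2 and Ccl7 lie together at 5.69 and 5.83 and Ccl8 at -1.0009, and in the other cluster Ccl6 at -0.20 lies between Ccl9 at 1.26 and Ccl3 at 3.78.

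Of 14 other CC chemokine genes, 5 were tested, of which 2 rose, 1 fell and 2 did not pass both criteria, with a median log2 fold change of -0.38. Among all genes tested, 10.5% rose and 10.4% fell. Ccl20, the ligand of CCR6, held 0 counts in all PBS libraries and 16, 11 and 11 in LPS (adjusted p = 3.93e-06, edgeR). Set against a floor of 3 counts per library it was at least 5.71-fold higher. Ccl17, like Ccl22 a CCR4 ligand and its neighbour on chromosome 8, held 1, 0 and 0 counts in PBS and 16, 14 and 18 in LPS (adjusted p = 7.28e-07, edgeR), a ratio of 66.5 with an exact 95% counting interval of 11.4 to 2682. Ccl20 and Ccl17 passed the filter on low counts only through their LPS libraries, so the filter favoured their rise. The gene that fell was Ccl8.

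Ccl25, the ligand of CCR9, had a log2 fold change of -0.38 ± 0.10 and Ccl27a, a ligand of CCR10, one of -0.85 ± 0.22. Of the rest, Ccl1, Ccl11, Ccl19, Ccl21a, Ccl21b, Ccl26 and Ccl27b were listed at 0 counts in all 6 libraries, where 3 counts correspond to 0.063 to 0.0919 normalized CPM. Whether their transcripts share stretches with other genes was not examined, and the treatment of multiply mapped reads is not given. Ccl28 held at most 3 counts in a library, and Ccl21c was not analysed here. Of 17 ligands of the other chemokine classes, 13 were tested, 9 rose and 0 fell, against 10.5% and 10.4% of all genes tested. Their median log2 fold change was 1.21. Among those that rose were the neutrophil attractants Cxcl1 and Cxcl2, with log2 fold changes of 11.22 and 9.97, and the CXCR3 ligand Cxcl10 with 5.02. Fold changes of Cxcl1 and Cxcl2 were thus larger than that of any of the 10 CC chemokine genes. Cxcl3 and Cxcl11 also rose but held at most 3 counts in any PBS library. Both passed the filter on low counts only through their LPS libraries, so the filter favoured their rise. Pf4, with a log2 fold change of 1.01 ± 0.06, lay at the edge of the fold criterion.

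Of 16 receptor genes for CC chemokines, including atypical receptors, 8 were tested, 3 rose and 0 fell, with a median log2 fold change of 0.80. The shares of all genes tested were 10.5% rising and 10.4% falling. Ccrl2, a non-signalling receptor that binds the attractant chemerin, rose from 893, 778 and 830 counts to 36726, 34532 and 37101, a log2 fold change of 5.91 ± 0.04 (adjusted p = 5.16e-24, edgeR). Ccr3, the receptor of Ccl24, rose by 1.94 ± 0.07 and Ccr9 by 1.38 ± 0.11 on the log2 scale. Ccr2 and Ccr1 did not pass both criteria. Ccr2, which binds Ccl2, Ccl7 and Ccl12, was at 260 ± 6.11 normalized CPM in PBS and 188 ± 15.2 in LPS, a log2 fold change of -0.47 ± 0.05. Ccr1, which binds Ccl3, Ccl6 and Ccl9, was at 18.1 ± 1.05 and 31.9 ± 2.28 (log2 fold change 0.82 ± 0.06), with levels as mean ± SD (n = 3) and the SE on the fold change. Ccr4, the receptor of Ccl22, held at most 1 count in any library.

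For each of the 10 genes, the gene with the most similar level over the 6 libraries was sought among 15383 genes that were not chemokine ligands, by Euclidean distance of log2 CPM. These distances describe a likeness over 6 libraries in 2 groups. Ccl2 lay nearest to the phosphodiesterase gene Pde4b (distance 0.59), Ccl7 to the cytokine gene Osm (0.52), Ccl3 to the transcription factor gene Ets2 (0.31) and Ccl4 to the AP-1 gene Fosl2 (0.49). Ccl5 lay nearest to Prag1 (0.37), Ccl12 to F730043M19Rik (0.29), Ccl22 to the growth factor gene Pgf (0.85) and Ccl24 to Gm9694 (0.70). The smallest distance, 0.19, was that between Ccl6 and the checkpoint gene Vsir, which was at 555 normalized CPM in PBS and 458 in LPS. Ccl9 lay nearest to Mcl1, a survival gene of the BCL2 family (0.72), which had a log2 fold change of 0.87 against 1.26 for Ccl9.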

How the data were processed

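The authors aligned paired-end reads of total RNA (TruSeq Stranded Total RNA Globin kit, 500 ng RNA) to GRCm38 with HISAT2 2.1.0, used FastQC 0.11.9 and SAMtools 1.17, and deposited the gene counts of featureCounts 2.0.0, not normalized. The annotation release, strand setting and treatment of multiply mapped reads are not given in the sources used here. Of 55335 gene rows, 55154 matched a GENCODE M21 symbol with the version ignored.

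Counts of 3 PBS and 3 LPS libraries were tested in R 4.3.3 with edgeR 4.0.16 (filterByExpr, TMM factors, quasi-likelihood test, Benjamini-Hochberg adjustment over 15687 genes), using the thresholds of the study. Standard errors were derived from the F statistic, and 95% intervals from them. TPM used the union of annotated exons and no TMM factors. Ratios used a prior count of 0.5, and distances a prior count of 2. The code was tested on simulated counts. Groups come from the labels. The named genes were the 10 members, tested members of the lists, called genes within 100 kb, the nearest genes and Tnf, and promoter matches are letters in RefSeq windows. Some genes of the lists are not reported here. The members and lists were chosen with earlier results of these data known. Floors and the exact interval of a ratio cover counting error only, and the other intervals include the spread between libraries.

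Same-numbered libraries carry the same batch number in the labels, which gives the pairing. Their deviations from the group means correlated by -0.0139 to 0.0822 across genes, against a mean of -0.0178 for different numbers. Alternatives were other scalings (library size, DESeq2's size factors, upper quartile, scaling without the 10 highest genes and the chemokines), other filters, DESeq2 1.42.0, limma 3.58.1 (voom), the replicate block, other thresholds, other lengths and leaving out each library.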

Additional observations from a re-analysis of the deposited data

How the results depend on the processing

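The log2 fold changes of the 10 genes kept their direction under every alternative that gave a value, and Ccl24 had none under the filter of 10 counts in every library, since its PBS libraries held fewer. At the main thresholds they kept their side in all but 1 case, Ccl9 with library size alone (0.86), and with a log2 threshold of 2, Ccl9 and Ccl12 lost the call and 7 genes rose. With the replicate block they moved by at most 0.01 (Ccl22 at 3.76 against 3.75), and the block changed no call. Leaving out single libraries moved Ccl22 most, between 3.48 and 4.05. By adjusted p alone, 1 of the 10 genes, Ccl6, was lower. For the other CC chemokine genes, 0 rose under the filter of 10 counts, because Ccl17 and Ccl20 were not tested. The number that fell, 1 in the main analysis, was 2 with library size alone, 3 by adjusted p alone and 0 with DESeq2's size factors, DESeq2's test, limma voom or a log2 threshold of 2, and 0 to 1 when single libraries were left out (0 without PBS replicate 2 or LPS replicate 3). For receptors, 5 rose and 2 fell by adjusted p alone, 1 rose with a threshold of 2 and 2 with library size alone, against 3 in the main analysis. Of the other chemokine ligands, 9 of which rose in the main analysis, 5 rose with a threshold of 2, 6 with library size alone or the filter of 10 counts, 7 with upper quartile scaling, and 7 to 9 when single libraries were left out (7 without PBS replicate 1). Of the genes around the clusters, 4 rose with no filter, 1 under the filter of 10 counts, 6 by adjusted p alone and 1 with a threshold of 2, and 2 to 4 when single libraries were left out (4 without PBS replicate 3). In the other direction 2 fell with library size alone or upper quartile scaling, 0 under the filter of 10 counts, 4 by adjusted p alone, and 1 to 2 when single libraries were left out (2 without LPS replicate 1). Beyond the genes not tested under the stricter filter, the cause was not tested. Without the length correction, the share of Ccl6 and Ccl9 together changed by -43 percentage points in place of -59.4, that of Ccl2, Ccl3, Ccl4 and Ccl7 by 40.9 in place of 57.6, and that of Ccl12 by 0.037 in place of -0.367. Low counts limit Ccl22 and Ccl24 most, and 3 libraries a group cannot give an exact p below 0.1.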
